A study of Bos taurus with 18 samples.

Results

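The comparison described here sets the cauda epididymidis, the tail of the duct, against the caput, its head, in bulls of medium-low fertility. It rests on 6 of the 18 arrays of the series, 3 from cauda and 3 from caput, chosen by the segment and the fertility class in the array titles, and it covers all 26773 probe sets of the array. The study took caput, corpus (the body of the duct) and cauda from 6 sexually mature Holstein bulls, 3 in each of a medium-low and a high fertility class, to ask how the epididymal transcriptome varies with male fertility. The bulls were 51 to 71 months old, and their class came from the share of cows not returning to service 56 days after a first insemination, over 282 to 486 inseminations for each bull. Epididymides came from a slaughterhouse on ice, pieces of each segment were frozen, and 200 ng of total RNA of each sample was labelled. Neither segment carried a treatment or a genetic change. The array titles call this class sub-fertile, the replicate numbers run from 1 to 3 in each group, and the labels do not say that a number marks 1 bull.

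Sperm leave the testis immotile and unable to fertilise, and they mature while passing down the epididymal duct. Principal cells of the epithelium change their gene expression along the duct. In many mammals the caput secretes proteins that are taken up by sperm or act on them, while the cauda, wrapped in thicker smooth muscle, stores sperm in a fluid that keeps them quiescent. A piece of tissue holds epithelium, muscle, vessels, connective tissue and luminal sperm together, so a lower signal from fewer cells of a type and one from less RNA per cell cannot be told apart.

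Values are the deposited log2 signals, on which a difference of 1 is a 2-fold difference, and all differences are cauda minus caput. No detection call accompanies them, so a low group may lie at background and a fold against it is not exact. A probe set was called where its adjusted p in limma, with Benjamini-Hochberg correction across the whole array, was under 0.05. Where an array is left out, its group keeps 2 arrays.

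The labels were first set against marker genes. The 3 caput arrays stood at 13.97, 14.03 and 13.37 for LCN6, a lipocalin of caput principal cells, above the cauda arrays at 7.32, 7.25 and 6.71. The epithelial adhesion molecule EPCAM averaged 11.32 ± 0.248 in cauda and 11.64 ± 0.0788 in caput (SD, n = 3 each), and its difference did not pass (limma adjusted p = 0.256). Another marker of the epididymal epithelium, PAX2, was called higher in cauda (difference 2.39, limma adjusted p = 0.0378), as described further on. The Leydig cell enzyme CYP17A1 and the Sertoli cell hormone AMH averaged 5.83 and 6.81 in cauda, against 5.67 and 6.63 in caput. Another Leydig cell gene, INSL3, had 6.20, 6.20 and 5.76 in cauda, against 6.08, 7.98 and 7.61 in caput, and INHA, of Sertoli cells, had 6.61, 6.52 and 6.57 in cauda, against 5.48, 5.55 and 6.42 in caput. None of these 4 genes passed (limma adjusted p = 0.209 for INSL3 and 0.142 for INHA). PRM1, the sperm protamine, averaged 11.77 ± 0.981 in cauda and 12.11 ± 1.79 in caput (SD, n = 3 each), so RNA of this sperm gene was measured in both segments.

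The arrays within each group were not equally alike. Caput arrays 1 and 2 correlated at 0.980 with each other across probe sets, but at 0.951 and 0.958 with caput array 3. Caput array 3 correlated at 0.987 to 0.990 with the 3 caput arrays of high fertility bulls, and caput arrays 1 and 2 at 0.949 to 0.956. The caput arrays spanned at least 2 log2 units in 719 probe sets, against 76 in high fertility caput, and the cauda arrays in 183, against 74 in high fertility cauda. Which probe sets these are is described further on, and gene list counts without caput arrays 1 and 2 are given after the lists. That fit used 16 arrays of all groups, and its lone medium-low caput array was assumed to vary like the other groups.

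Of the 26773 probe sets, 1797 (6.71%) were called between cauda and caput, 1037 (3.87%) higher and 760 (2.84%) lower in cauda. Among them 469 increases and 372 decreases reached 2-fold, and 32 and 52 reached 8-fold. The 3 cauda and the 3 caput arrays did not overlap in any of the 1797, nor in 30.1% of all probe sets. With the replicate number as a block 935 were called, 536 higher and 399 lower, of which 825 were called with the same sign without the block. Without cauda 1, cauda 2 or caput 2 the fits called 338, 380 and 353, without caput 1 959, and without caput 3 3569. All 18 arrays in 1 fit called 5481, and that fit without caput arrays 1 and 2, on 16 arrays, called 3385. Since the segments did not overlap in the 1797, none of their signs could change in that last fit, so the sign is no check there.

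The genes of largest increase in cauda encode secreted and sperm-surface proteins, enzymes, receptors and ion channel proteins. LOC523503, a locus with no assigned name, stood at 13.30, 13.08 and 13.51 in cauda, against 7.06, 6.57 and 6.5 in caput. The difference was 6.59 (SE 0.194, 96.2-fold, limma adjusted p = 0.000247), and no array came near the other segment. CD52, a small glycopeptide that the epididymis passes to the sperm surface, had 13.48, 13.50 and 13.49 in cauda, against 7.24, 6.73 and 8.04 in caput. It rose 71.0-fold (limma adjusted p = 0.000887), and its 3 cauda arrays were almost level. For CES5A, a secreted carboxylesterase, the cauda arrays gave 12.43, 12.31 and 13.04 and the caput arrays 5.81, 5.98 and 7.83, so that caput 3 was the highest of the low group. Its difference was 6.05 (SE 0.549, limma adjusted p = 0.00433).

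**Figure D1:**
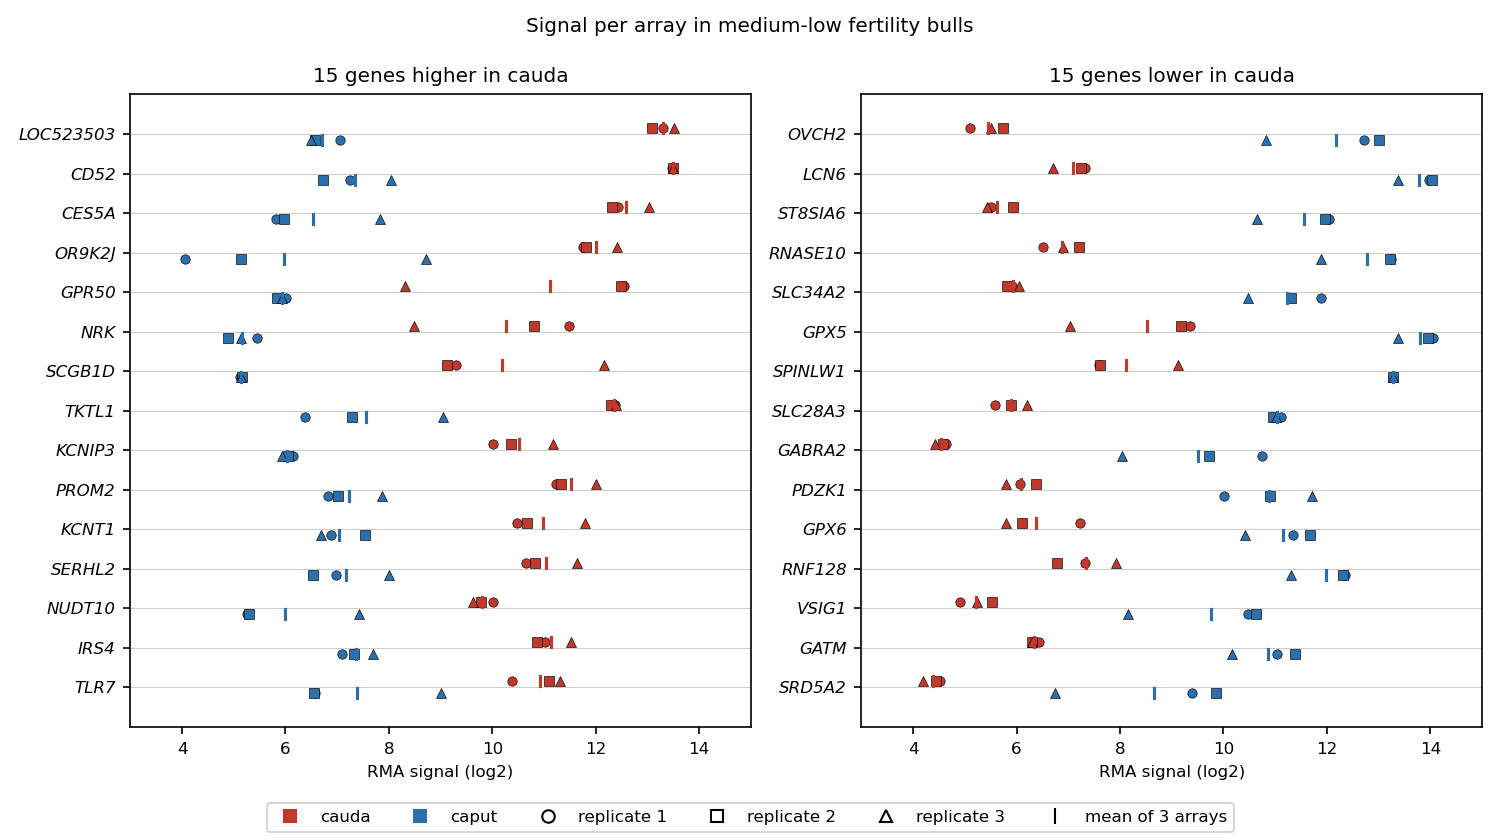
Log2 signal on each array (x axis) for the 15 genes of largest increase (left) and of largest decrease (right) in cauda of medium-low fertility bulls, cauda in red and caput in blue, with a symbol for each replicate number and a bar at the mean of 3 arrays. The 2 colours do not overlap for any of the 30 genes. GPR50, NRK and SCGB1D spread most widely over the cauda arrays. OR9K2J, SRD5A2, GABRA2, TKTL1, VSIG1 and TLR7 did so over the caput arrays.

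Several other large increases rested on groups whose arrays were less alike. The orphan receptor GPR50, a relative of the melatonin receptors, stood at 12.54, 12.49 and 8.32 in cauda, against 6.01, 5.84 and 5.94 in caput. Its call (difference 5.18, limma adjusted p = 0.0465) was lost with the replicate block (adjusted p = 0.0676) and without any single array but cauda 3 (adjusted p up to 0.151). NRK, a kinase of the germinal centre kinase family, had 11.49, 10.80 and 8.49 in cauda and 5.46, 4.89 and 5.14 in caput, again with cauda 3 lowest. SCGB1D, a secretoglobin, had its highest cauda signal in that same array, at 9.29, 9.12 and 12.16 in cauda and 5.12 to 5.17 in caput. The calls of NRK and SCGB1D (limma adjusted p = 0.0159 and 0.0199) were lost without cauda 1, cauda 2 or caput 2, at up to 0.0723 and 0.0793, and that of SCGB1D also without caput 1.

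The olfactory receptor family gene OR9K2J had 11.76, 11.81 and 12.42 in cauda, against 4.06, 5.15 and 8.72 in caput. TLR7, a receptor for single-stranded RNA, had 10.38, 11.10 and 11.30 in cauda, against 6.57, 6.56 and 9.01 in caput. For both genes caput 3 lay well above caput 1 and 2, and both calls (limma adjusted p = 0.0326 and 0.0349) were lost without any single array but caput 3, at up to 0.116 and 0.124. TKTL1, a relative of the pentose phosphate enzyme transketolase, and NUDT10, a hydrolase of diphosphoinositol polyphosphates, also had their highest caput signal in array 3. They rose by 4.79 and 3.82, and their calls were lost without cauda 1, cauda 2 or caput 2, at up to 0.0638 and 0.0841.

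Ion channel and membrane proteins made up much of the rest. KCNIP3, a calcium sensor protein of potassium channels, had 10.01, 10.37 and 11.17 in cauda and 6.14, 6.05 and 5.93 in caput, a 22.3-fold increase (limma adjusted p = 0.00204). A second probe set of KCNIP3 rose by only 0.73. The sodium-activated potassium channel KCNT1 rose by 3.95, the membrane glycoprotein prominin 2, PROM2, by 4.28, the serine hydrolase-like SERHL2 by 3.87 and the insulin receptor substrate IRS4 by 3.76. These 5 genes kept their calls with the block and without each array in turn. Of the 15 genes, 14 were called with the block and all 15 without caput arrays 1 and 2.

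The largest decreases in cauda were in genes of secreted proteins, transporters and enzymes of the caput. OVCH2, a serine protease that in mouse acts in sperm maturation downstream of a luminal signal from the testis, had 5.09, 5.73 and 5.50 in cauda, against 12.72, 13.00 and 10.82 in caput. It fell 107-fold (limma adjusted p = 0.00389), and caput 3 was the lowest of the high group. LCN6 fell 104-fold (difference -6.70, SE 0.242, limma adjusted p = 0.000358). RNASE10, a secreted member of the ribonuclease A family, had 6.51, 7.21 and 6.90 in cauda, against 13.25, 13.22 and 11.88 in caput. GPX5, a secreted glutathione peroxidase, had 9.36, 9.17 and 7.04 in cauda, against 14.06, 13.96 and 13.37 in caput, with number 3 lowest in both segments. Its relative GPX6 had 7.22, 6.10 and 5.80 in cauda and 11.34, 11.67 and 10.42 in caput. The arrays did not overlap for any of them.

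SPINLW1, the protease inhibitor eppin that coats sperm, had 7.59, 7.62 and 9.13 in cauda, against 13.27, 13.28 and 13.28 in caput. The caput arrays were level, and cauda 3 lay above the other cauda arrays (difference -5.17, SE 0.411, limma adjusted p = 0.00324). SLC28A3, a concentrative nucleoside transporter, had 5.59, 5.90 and 6.20 in cauda and 11.12, 10.95 and 11.01 in caput. Its 35-fold decrease had the smallest adjusted p among the decreases named (0.000263, limma), and neither group spread by more than 0.61. The phosphate transporter SLC34A2 fell by 5.29, the sialyltransferase ST8SIA6 by 5.94, PDZK1, a scaffold of membrane transporters, by 4.80, GATM, an enzyme of creatine synthesis, by 4.52, and the ubiquitin ligase RNF128 by 4.64.

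GABRA2, a GABA receptor subunit, VSIG1, an immunoglobulin-domain junction protein, and SRD5A2, the 5-alpha reductase that makes dihydrotestosterone, differed most among the caput arrays. SRD5A2 had 4.52, 4.45 and 4.20 in cauda, against 9.40, 9.85 and 6.74 in caput. Its call (limma adjusted p = 0.0299) was lost without any single array but caput 3, at up to 0.111. The calls of GABRA2 and VSIG1 were lost without cauda 1, cauda 2 or caput 2, at up to 0.0587 and 0.0754. All 15 genes of largest decrease were called with the replicate block and without caput arrays 1 and 2.

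The corpus arrays of the same class, which the comparison did not use, show where along the duct these differences lay. On a scale where 0 is the caput mean and 1 the cauda mean, the corpus mean was at 0.25 or less for 8 of the 15 increases, at 0.75 or more for 5, and between for 2. GPR50, NRK, SCGB1D, KCNIP3, PROM2, KCNT1 and NUDT10 stood between -0.01 and 0.05, so that their corpus arrays were at the caput level. LOC523503, CES5A, OR9K2J and CD52 stood at 1.06, 1.12, 0.90 and 0.81, at or near the cauda level. Among the 15 decreases the corpus was at 0.75 or more for 10, between for 4 and at 0.25 or less for 1. That 1 was SPINLW1, at 12.72, 12.85 and 11.08 in corpus, close to the caput. Over the called 1-gene probe sets that differed 2-fold or more, the corpus lay at 0.25 or less for 130 of 417 increases and 57 of 318 decreases, and at 0.75 or more for 97 increases and 137 decreases. The median position was 0.41 for the increases and 0.68 for the decreases.

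**Figure D2:**
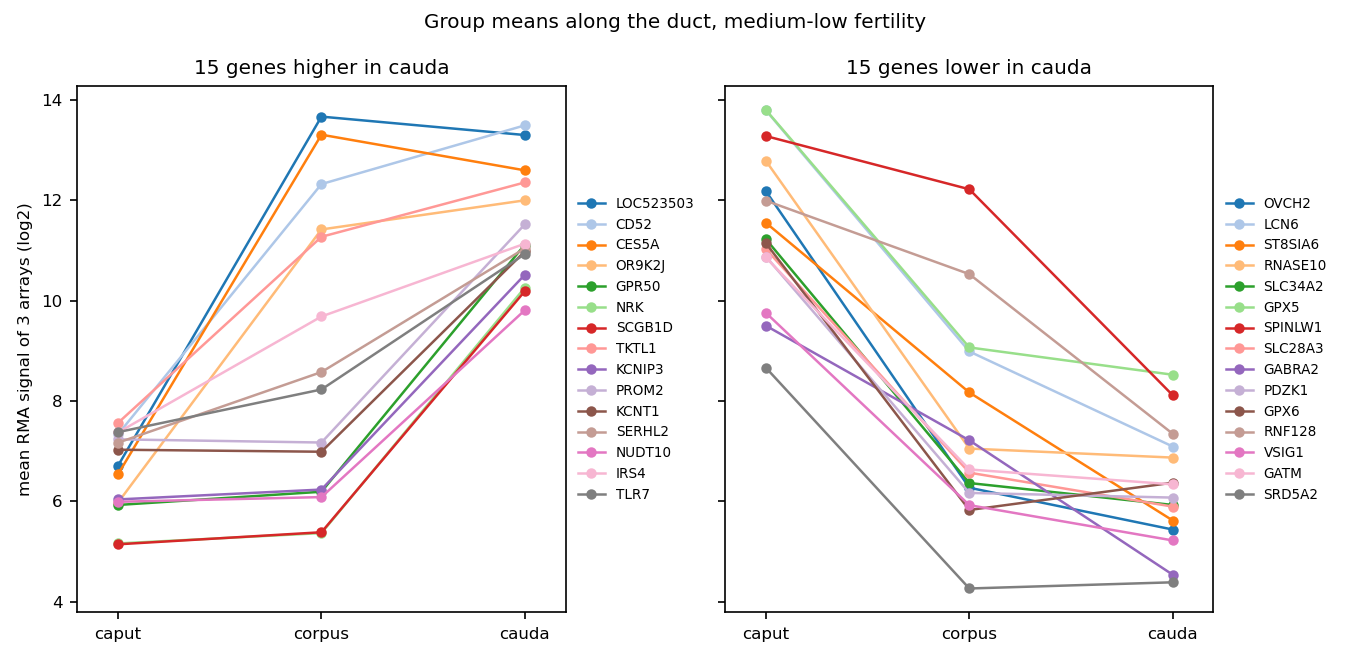
Mean log2 signal of 3 arrays (y axis) in caput, corpus and cauda of medium-low fertility bulls for the 15 genes of largest increase (left) and decrease (right) in cauda. For 10 of the decreases the corpus was at or near the cauda level, SPINLW1 stayed near the caput level there, and 7 of the increases were still at the caput level in the corpus.

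Gene lists were described by their members' brightest probe set. Of 18010 genes, 1505 (8.36%) were called, 867 (4.81%) higher and 638 (3.54%) lower, and the median difference over all genes was 0.024. With the replicate block 2.55% of genes were higher and 1.83% lower. These shares are the background for the counts of called genes that follow. List counts at an unadjusted p under 0.05 have no such share beside them and are not set against a background.

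Caput secreted proteins had 5 of 23 measured genes lower and 1 higher, with a median difference of -1.25. LCN6, RNASE10, GPX5, GPX6 and ELSPBP1, a protein that binds sperm of low viability in the bull, fell, and CES5A rose. ELSPBP1 had 9.25, 9.38 and 10.72 in cauda, against 12.52, 12.73 and 13.30 in caput. Its call (limma adjusted p = 0.0144) was lost without cauda 1, cauda 2 or caput 2, at up to 0.0652. None of the 14 measured beta-defensins, small antimicrobial and sperm-coating peptides, was called by limma on the 6 arrays (0 higher and 5 lower at an unadjusted p under 0.05), and their median was -0.72. With the replicate block 1 was called lower, and with all 18 arrays 4.

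Protease inhibitors of the WFDC, Kazal, cystatin and serpin families had 2 of 26 genes higher and 2 lower, with a median of 0.10. SERPINF2, the plasmin inhibitor, fell by 2.84, and the call was lost without cauda 1 or cauda 2 (limma adjusted p up to 0.0656). Sperm-coating surface and CAP-domain proteins had 2 of 19 genes higher and 1 lower. PATE1, a secreted protein of the three-finger type, had 11.11, 10.83 and 11.39 in cauda, against 8.06, 6.88 and 7.76 in caput, and rose 11.7-fold (limma adjusted p = 0.00426). Of 19 genes of the lumicrine pathway and the initial segment, the first stretch of the caput, 3 were lower and 0 higher, namely OVCH2, SRD5A2 and ROS1. The receptor ROS1, which in mouse drives initial segment differentiation, had 9.26, 9.94 and 7.92 in cauda and 12.20, 12.19 and 11.85 in caput. The call of ROS1 (limma adjusted p = 0.0211) was lost without cauda 1, caput 1 or caput 2, at up to 0.0845. These lists overlap, since ELSPBP1 and several others stand in more than 1.

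**Figure D3:**
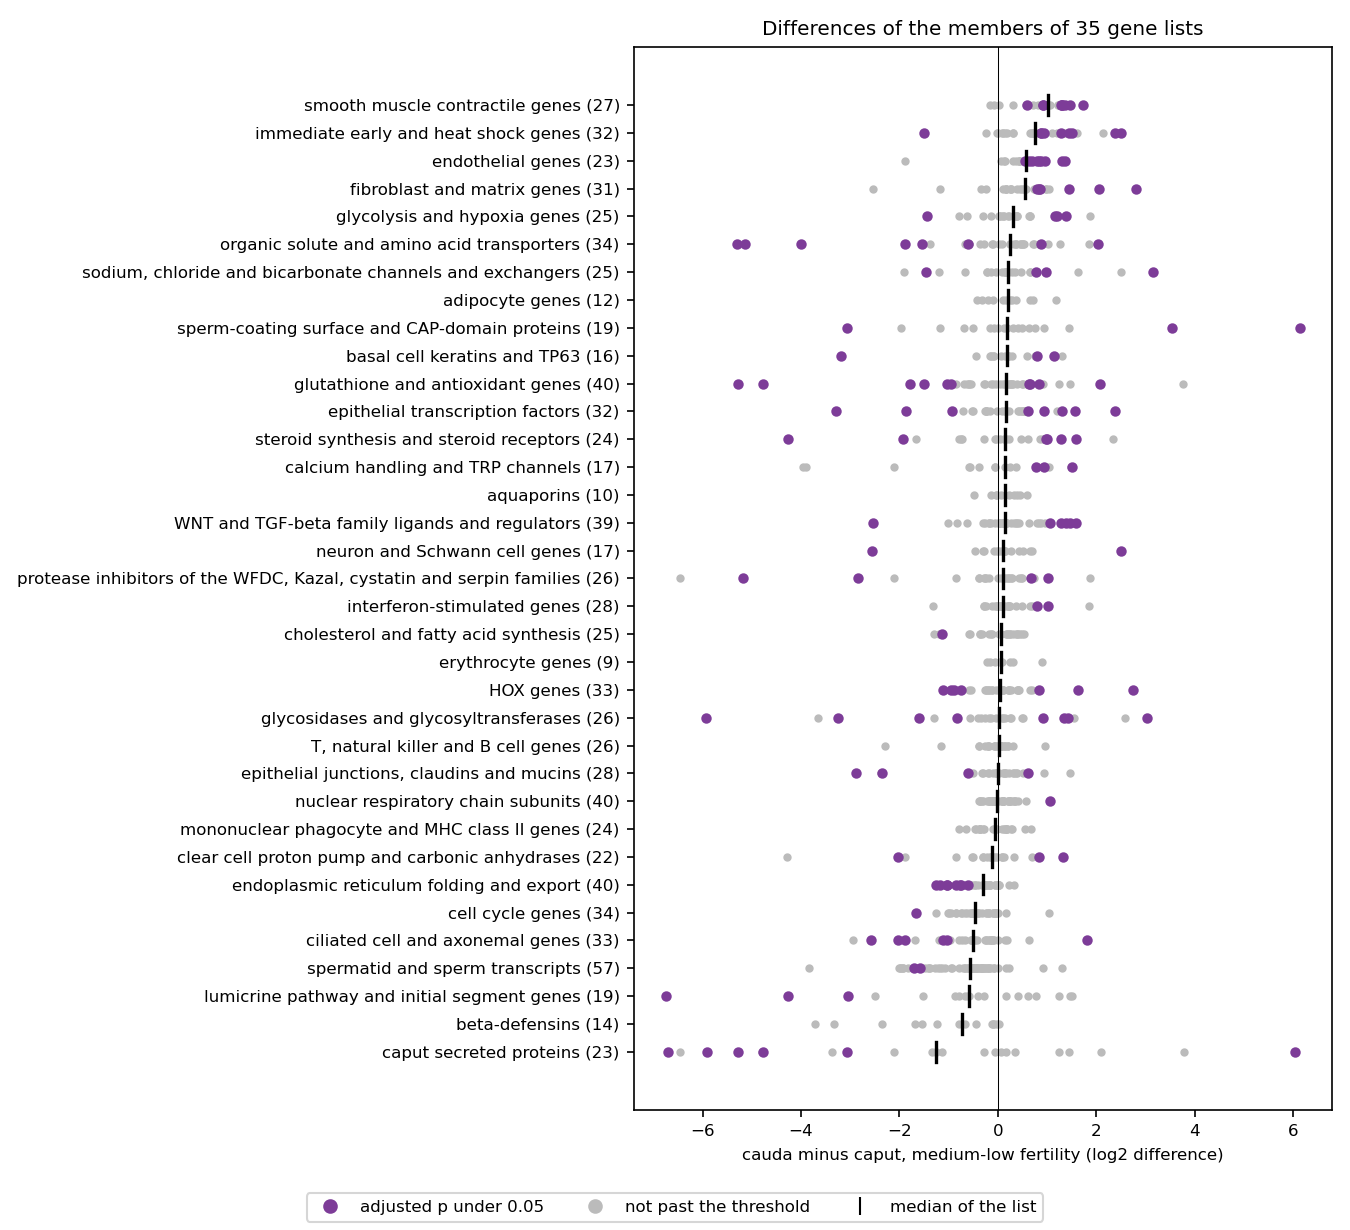
Log2 difference, cauda minus caput, of each measured member of the 35 lists in medium-low fertility bulls (x axis), with called members in purple, the others in grey and the list median as a bar. The number measured follows each name, and the medians run from 1.02 for smooth muscle contractile genes to -1.25 for caput secreted proteins.

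Transport genes moved in both directions. Of 34 organic solute and amino acid transporters 6 were lower and 2 higher. The glutamine transporter SLC1A5 had 8.11, 8.19 and 7.27 in cauda, against 11.39, 12.10 and 12.07 in caput, a difference of -4.0 (SE 0.309, limma adjusted p = 0.00291). The carnitine transporter SLC22A16 fell by 1.88, and another amino acid carrier, SLC38A1, rose by 2.03, a call lost without cauda 1 or cauda 2 (limma adjusted p up to 0.0617). Among 25 sodium, chloride and bicarbonate channels and exchangers 3 were higher and 1 lower, of which 1, SCNN1A, was called with the block. SCNN1A, the alpha subunit of the epithelial sodium channel, had 9.95, 10.11 and 10.71 in cauda, against 6.98, 7.53 and 6.82 in caput, and rose 8.87-fold (limma adjusted p = 0.00375). The chloride and bicarbonate channel CFTR had 8.03, 7.83 and 7.99 in cauda and 10.04, 9.11 and 9.06 in caput. Its call was lost with the block (limma adjusted p = 0.0501) and without cauda 1, cauda 2, cauda 3 or caput 2, at up to 0.119. In the corpus CFTR was at 5.88, 5.51 and 5.45, below both other segments.

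Of 22 genes of the clear cell proton pump and carbonic anhydrases 2 were higher and 1 lower. Their median was -0.12, and 8 of the 22 had a difference above 0. The clear cell markers ATP6V1B1, ATP6V0D2, FOXI1 and CA2 had differences of -0.14, -0.51, -0.53 and -4.29. None of these 4 passed (limma adjusted p = 0.0746 to 0.603). The pump subunit ATP6V1C2 had 11.46, 11.63 and 11.82 in cauda, against 10.37, 10.35 and 10.18 in caput (difference 1.33, limma adjusted p = 0.00539). The carbonic anhydrase CA3 had 9.35, 9.83 and 9.99 in cauda and 11.84, 11.92 and 11.47 in caput, and fell 4.05-fold (limma adjusted p = 0.00654). The calcium pump ATP2B4 rose by 1.5 with the other plasma membrane pump ATP2B1 and the cation channel TRPM4, and 3 of 17 calcium handling genes were called higher and 0 lower. Only ATP2B4 was called with the block (limma adjusted p = 0.0474), and none of the 3 calls was kept without cauda 1, cauda 2, caput 1 or caput 2. Limma called none of 10 aquaporins (1 higher and 0 lower at an unadjusted p under 0.05). AQP9, a water and solute channel of principal cells, had 12.78, 12.69 and 13.04 in cauda, against 12.30, 12.31 and 12.90 in caput, and these groups overlapped.

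Genes that fold and export proteins in the endoplasmic reticulum had 8 of 40 members lower and 0 higher, and 6 of the 40 had a difference above 0. The chaperone cofactor DNAJB9 had 9.84, 9.84 and 10.33 in cauda, against 11.39, 11.08 and 11.07 in caput, a 2.26-fold decrease (limma adjusted p = 0.0183). SEC61A1, the channel subunit of the translocon, fell by 1.03 and the signal peptidase subunit SPCS2 by 0.85. With the replicate block 2 of the 8 were called, DNAJB11 and ERLEC1 (limma adjusted p = 0.0382 and 0.0469). No call of the list was kept without cauda 1, cauda 2 or caput 2.

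Glycosidases and glycosyltransferases, which trim and build sugar chains, had 4 of 26 genes higher and 4 lower. GLB1L2, a galactosidase relative, had 7.09, 7.27 and 6.93 in cauda, against 10.26, 10.21 and 10.54 in caput, and its corpus arrays stood at 10.95 to 11.71. It fell 9.45-fold (limma adjusted p = 0.000618). The sialyltransferase ST3GAL4 had 10.57, 10.72 and 10.89 in cauda and 7.68, 7.59 and 7.79 in caput, and rose 8.23-fold (limma adjusted p = 0.00046), whereas ST8SIA6 fell 61.2-fold. Both groups were tight for GLB1L2 and ST3GAL4, and both calls were kept without each array in turn. Glutathione and antioxidant genes had 6 of 40 lower and 4 higher. Apart from GPX5 and GPX6, catalase, CAT, fell by 1.79 and glutathione reductase, GSR, rose by 2.08, while 5 of the 10 calls were kept with the block.

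Steroid-related genes had 4 of 24 higher and 2 lower, and all 6 were called with the block. The oestrogen receptor ESR2 had 11.13, 11.07 and 11.07 in cauda, against 9.58, 9.02 and 9.90 in caput, a difference of 1.59 (SE 0.223, limma adjusted p = 0.015). ESR1 had 9.98, 9.93 and 9.98 in cauda and 8.78, 8.32 and 8.93 in caput, and its second probe set rose by 0.95. Both calls were lost without cauda 1 or cauda 2, at adjusted p up to 0.0729 and 0.0661 in limma. The membrane-associated steroid-binding protein PGRMC1 fell by 1.93. Of 25 genes of cholesterol and fatty acid synthesis 1, EBP, was lower and 0 higher, and of 40 nuclear respiratory chain subunits 1, COX8A, was higher and 0 lower. The call of EBP was lost with the block (limma adjusted p = 0.0563) and without any single array but caput 3, at up to 0.1. COX8A had 12.50, 12.39 and 12.26 in cauda and 11.32, 11.29 and 11.37 in caput, with a call kept without each array in turn. Glycolysis and hypoxia genes had 3 of 25 higher and 1 lower, and ADM, the vasodilator peptide adrenomedullin, rose by 1.39.

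Transcription factors that pattern the duct differed as well. Of 33 HOX genes 3 were higher and 4 lower. HOXA9 had 9.03, 8.38 and 7.82 in cauda, against 5.63, 5.20 and 6.18 in caput (difference 2.74, limma adjusted p = 0.0135), and HOXA10 rose by 1.63. HOXB9, HOXC8, HOXD8 and HOXB7 fell by 0.75 to 1.12. With the block HOXA9 and HOXC9 were called (limma adjusted p = 0.0472 and 0.0411), and HOXA10 and the 4 decreases were not, at 0.0526 to 0.0737. No HOX call was kept without caput 2, and 1 of 7 was kept without cauda 1 or without cauda 2.

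Epithelial transcription factors had 5 of 32 higher and 3 lower. ELF5, an ETS factor, had 5.46, 5.18 and 5.04 in cauda, against 8.45, 9.11 and 7.95 in caput, and 10.76 to 11.09 in corpus. It fell 9.69-fold (limma adjusted p = 0.00431), and HNF4A, a nuclear receptor of transporting epithelia, fell by 1.86, while ELF3 rose by 1.58. PAX2, which marks the epididymal epithelium, had 11.63, 11.52 and 11.85 in cauda and 8.96, 8.47 and 10.41 in caput. The PAX2 call (limma adjusted p = 0.0378) was lost without any single array but caput 3, at up to 0.131.

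Among 39 WNT and TGF-beta family ligands and regulators 5 were higher and 1 lower. INHBA, the beta subunit of activin A, had 6.89, 7.07 and 6.81 in cauda, against 9.71, 9.77 and 8.89 in caput. The activin antagonist follistatin, FST, had 7.74, 6.92 and 7.19 in cauda and 5.58, 5.81 and 5.68 in caput. INHBA fell 5.80-fold and FST rose 3.02-fold (limma adjusted p = 0.00539 and 0.0139), and the call of FST was lost without caput 2 (0.0577). GREM1, an antagonist of bone morphogenetic proteins, TGFB3, SFRP4 and LGR4 rose by 1.06 to 1.47, calls that were lost with the block (limma adjusted p = 0.0534 to 0.0625). In epithelial junctions, claudins and mucins 3 of 28 were lower and 1 higher. CLDN2, a pore-forming claudin, had 5.76, 6.11 and 5.80 in cauda and 8.34, 9.40 and 8.61 in caput, a 7.41-fold decrease (limma adjusted p = 0.00536).

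The called genes of muscle, vessels and connective tissue were all higher in cauda, and most members of the 3 lists were not called. Of 27 smooth muscle contractile genes 9 rose and 0 fell, with a median difference of 1.02. Desmin, DES, had 13.59, 13.54 and 12.80 in cauda, against 11.82 to 12.04 in caput (difference 1.36, limma adjusted p = 0.0239). The mean over the list was 10.99, 10.94 and 10.25 in cauda and 9.74, 9.89 and 9.73 in caput. Cauda 3 was thus the lowest of its group and still above every caput array. Of 23 endothelial genes 9 rose and 0 fell, with a median of 0.58, among them the junction protein PECAM1 by 0.88 and the sialomucin EMCN by 1.31. Of 31 fibroblast and matrix genes 6 rose and 0 fell, with a median of 0.55. The matrix protein tenascin C, TNC, had 10.08, 10.63 and 8.59 in cauda and 6.83 to 7.04 in caput, and fibronectin, FN1, rose by 2.06. None of the 4 fibroblast markers passed. COL1A1, COL1A2 and DCN had differences of 0.81, 0.78 and 0.26, and PDGFRA one of -0.35 (limma adjusted p = 0.162 to 0.286).

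These calls depended on the fit. With the replicate block 5 smooth muscle genes, 1 endothelial gene, EGFL7, and 1 matrix gene, TNC, were called (limma adjusted p = 0.0417 for EGFL7 and 0.0444 for TNC). DES, PECAM1, EMCN and FN1 were not (limma adjusted p = 0.0549 to 0.0599). No call of the 3 lists was kept without cauda 1, cauda 2 or caput 2. The muscle list mean was higher in cauda along with the genes described above as higher there, and its part in those results was not tested.

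The other cell types gave fewer calls. Limma called none of 24 mononuclear phagocyte and MHC class II genes (2 higher and 3 lower at an unadjusted p under 0.05) and none of 26 T, natural killer and B cell genes (1 and 1). Nor did it call any of 9 erythrocyte genes (0 and 0) or of 12 adipocyte genes (1 and 1). In the basal cell list, 2 of 16 were higher and 1 lower, with TRIM29 at -3.18 and the keratin KRT15 at 1.15 (limma adjusted p = 0.00603 and 0.00562). The basal cell markers TP63, KRT5 and KRT14 had differences of 0.21, -0.14 and 0.06, and none passed (limma adjusted p = 0.695 to 0.872). Of 33 ciliated cell and axonemal genes 5 were lower and 1 higher. The axonemal dynein DNAH7 fell by 2.02 and SPAG16 by 1.11, both kept without each array in turn, while another dynein, DNAH11, rose by 1.81, a call lost with the block (limma adjusted p = 0.0641).

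Spermatid and sperm transcripts, which come from germ cells and not from the duct wall, had 2 of 57 genes lower and 0 higher, which is 3.51% of the list against 8.36% of all genes. Their median difference was -0.57, and 5 of the 57 had a difference above 0. The list mean was 6.34, 6.49 and 6.17 in cauda, against 6.21, 7.68 and 7.46 in caput. Caput 1 was thus at the cauda level, and caput 2 and 3 were above it. AKAP4, a sperm tail scaffold, had 5.88, 6.33 and 5.39 in cauda and 5.64, 8.14 and 8.24 in caput, and did not pass (limma adjusted p = 0.275). ZPBP and DKKL1, acrosomal proteins, fell by 1.58 and 1.71.

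Among immediate early and heat shock genes 8 of 32 were higher and 1 lower, with a median of 0.75, and 11 higher and 1 lower with the block. The growth factor-like CCN2 had 12.53, 12.52 and 11.57 in cauda, against 10.23, 9.74 and 9.50 in caput. JUN had 10.59, 11.32 and 10.69 in cauda and 9.58, 9.65 and 9.03 in caput. The nuclear receptor NR4A3 rose by 2.50, and EGR2, a zinc finger factor of the same response, fell by 1.5. FOSL2, JUND and EGR2 were called without each array in turn, and CCN2, JUN and NR4A3 were not called without cauda 1 or caput 2 (limma adjusted p up to 0.0997).

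Of 28 interferon-stimulated genes 2 were higher and 0 lower, IRF7 by 0.8 and HERC6 by 1.02, and both calls were lost with the block (limma adjusted p = 0.0608 and 0.0756). BUB1B, a kinase of the mitotic checkpoint, had 7.04, 6.38 and 6.48 in cauda, against 8.23, 8.32 and 8.39 in caput, and was the 1 called of 34 cell cycle genes (limma adjusted p = 0.00858). Of 17 neuron and Schwann cell genes 1 was higher and 1 lower. S100B, a calcium-binding protein of glia, had 9.71, 9.41 and 9.53 in cauda and 11.92, 11.98 and 12.4 in caput. SNAP25, a protein of vesicle fusion, had 8.8, 8.72 and 9.62 in cauda and 6.62, 6.91 and 6.12 in caput. BUB1B, S100B and SNAP25 were called without each array in turn, with no overlap of the segments.

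Several list counts rested on caput arrays 1 and 2. Their counts without these arrays, from 16 arrays, are set here against all 18 arrays, since both fits share the spread over all groups. Over all genes the 16-array fit called 7.66% higher and 8.05% lower, against 13.8% and 11.5% with 18 arrays. The lumicrine and initial segment list had 4 higher and 4 lower without them, against 3 and 7 with them, and its median was 0.19 without them and -0.58 with them. In high fertility bulls, whose own fit of 6 arrays called 23.7% of all probe sets, that list had 7 higher and 6 lower. Beta-defensins had 4 lower in both fits, with a median of -0.34 without these arrays.

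Protease inhibitors had 2 higher and 7 lower without caput arrays 1 and 2, against 5 and 5 with them, and glycosidases and glycosyltransferases 2 and 9, against 7 and 7. The clear cell list had 1 higher and 6 lower, against 3 and 4, and sperm-coating proteins 3 and 3, against 6 and 1. Glutathione and antioxidant genes had 7 higher and 12 lower, against 10 and 10. The medians of the protease inhibitor, glycosidase and glutathione lists were -0.07, -0.22 and -0.14 without these arrays and 0.10, 0.03 and 0.17 with them.

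Endoplasmic reticulum genes had 16 lower without caput arrays 1 and 2, against 21 with them. Smooth muscle genes had a median of 1.10 without these arrays and 1.02 with them. The medians of endothelial genes were 0.54 and 0.58, and those of fibroblast and matrix genes 0.60 and 0.55. Cell cycle genes had a median of -0.35 without these arrays and -0.46 with them. Spermatid and sperm transcripts had more calls without these arrays, with 21 lower, against 8.

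Some genes differed more among the 3 caput arrays than between the segments. The 8 genes of widest caput range were DEFB122A, LCN9, QPCT, RGSL1, AOX4, POSTN, GCNT4 and TMEM150C, and none of their segment differences was called (limma adjusted p = 0.145 to 0.655). LCN9, a lipocalin, had 6.49, 6.31 and 6.47 in cauda, against 13.80, 13.54 and 6.31 in caput. The oxidase AOX4 had 5.6, 5.97 and 5.74 in cauda and 12.50, 12.37 and 5.47 in caput. For both, caput 3 was at the cauda level and caput 1 and 2 were far above. High fertility caput stood at 6.18 to 6.46 for LCN9 and 5.36 to 5.73 for AOX4, beside caput 3.

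The opposite order occurred too, in DEFB122A and QPCT. DEFB122A, a beta-defensin, had 4.14, 4.15 and 5.52 in cauda, against 4.53, 3.99 and 12.33 in caput, and high fertility caput stood at 12.24 to 12.60. QPCT, which forms pyroglutamate at protein ends, had 5.18, 5.61 and 5.4 in cauda, against 4.17, 5.30 and 11.56 in caput. Its corpus arrays of all 3 numbers were high, at 10.83 to 11.58. POSTN, the matrix protein periostin, had its caput arrays in the order of LCN9 and AOX4. It had 8.28, 9.58 and 7.21 in cauda and 12.91, 13.37 and 6.38 in caput, against 5.24 to 5.51 in high fertility caput.

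In all, caput arrays 1 and 2 were both at least 2 log2 units above caput 3 in 149 probe sets and below it in 194, of which 5 and 5 were called between the segments. In these sets caput arrays 1 and 2 minus the high fertility caput mean had a median of 3.03 and -2.77, and caput 3 minus that mean a median of at most 0.02 in size. The following genes, apart from the clear cell marker CA2, were named after their values were seen. CST11, a cystatin, had 5.73, 5.70 and 5.10 in cauda and 13.81, 13.75 and 8.36 in caput, and just missed the threshold (limma adjusted p = 0.0514). CA2, a carbonic anhydrase, had 6.71, 6.90 and 5.70 in cauda, against 12.27, 11.89 and 8.02 in caput. The calcium-binding proteins CALB1 and PVALB had 4.69 to 5.19 and 5.21 to 5.51 in cauda. In caput CALB1 had 10.82, 10.84 and 4.64 and PVALB 10.99, 11.21 and 5.65. S100G, another calcium-binding protein, had 11.83, 11.32 and 11.92 in cauda and 11.86, 11.95 and 8.13 in caput. Its caput 3 was also below caput 1 and 2, but its cauda arrays were high.

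**Figure D4:**
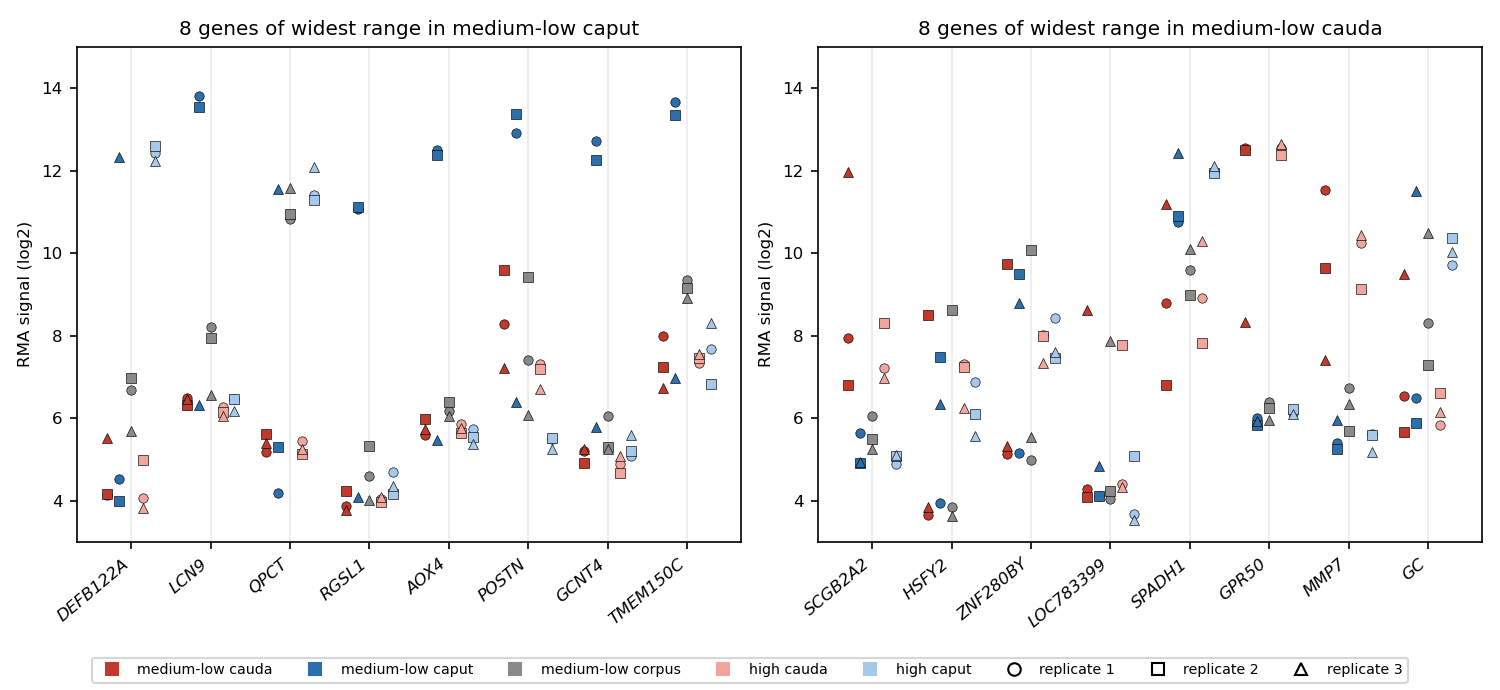
Log2 signal (y axis) of the 8 genes of widest range over the medium-low caput arrays (left) and over the medium-low cauda arrays (right), shown for medium-low cauda, caput and corpus and high fertility cauda and caput, with a symbol for each replicate number. In 6 of the 8 genes at left caput arrays 1 and 2 stand alone, far above every other array.

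Among the cauda arrays, array 3 stood at least 2 log2 units above both others in 19 probe sets and below both in 13. The widest ranges there were those of SCGB2A2, HSFY2, ZNF280BY, LOC783399, SPADH1, GPR50, MMP7 and GC. The secretoglobin SCGB2A2 had 7.94, 6.8 and 11.98 in cauda, against 5.64, 4.91 and 4.94 in caput, with no overlap and no call (limma adjusted p = 0.136). The matrix protease MMP7 had 11.52, 9.63 and 7.41 in cauda and 5.39, 5.25 and 5.95 in caput (limma adjusted p = 0.0609). HSFY2, a heat shock factor relative, had its highest signal in number 2 of each segment, at 3.65, 8.50 and 3.84 in cauda, 3.94, 7.47 and 6.33 in caput and 3.85, 8.63 and 3.62 in corpus.

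Whether the segment difference itself differed between the fertility classes was tested on the 12 cauda and caput arrays. In high fertility bulls, which share no array with the comparison above, 6353 probe sets (23.7%) were called between cauda and caput. Of the 1037 higher ones of medium-low bulls 856 were called there with the same sign, which is 82.5% of that list and 27.1% of the 3153 of high fertility. Of the 760 lower ones 663 were, which is 87.2% and 20.7% of 3200. The arrays of high fertility bulls spread less, as given above, and the part of this spread in the larger count was not tested.

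The interaction was called for 1 probe set (0.00374%), 12708857, for which the annotation table gives no gene. It had 5.44, 5.45 and 5.63 in medium-low cauda and 5.49, 5.92 and 6.11 in medium-low caput, against 5.25 to 5.59 in high fertility cauda and 8.85 to 9.16 in high fertility caput. High fertility caput alone was high. At an unadjusted p under 0.05 limma's interaction gave 2528 probe sets (9.44%), 1478 with a higher and 1050 with a lower difference in medium-low bulls. Without caput array 3 of the medium-low bulls the interaction was called for 2204 probe sets, and without both of their arrays numbered 3 for 1862.

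None of the 30 genes of largest change passed the interaction test, although 3 increases and 5 decreases had an unadjusted p under 0.05. All 30 were called in high fertility bulls with the same sign. VSIG1 had the widest gap, with -4.54 in medium-low and -1.8 in high fertility bulls, a difference of -2.74 (limma adjusted p = 0.523). Its high fertility caput arrays stood at 6.95 to 7.10, below the medium-low caput at 10.48, 10.63 and 8.16. OVCH2 differed by -6.74 in medium-low and -4.39 in high fertility bulls, and TLR7 by 3.55 and 1.6, and neither gap passed (limma adjusted p = 0.523 for both). The difference of LCN6 was -6.70 in medium-low and -6.5 in high fertility bulls, and that of SCGB1D 5.04 and 5.0.

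**Figure D5:**
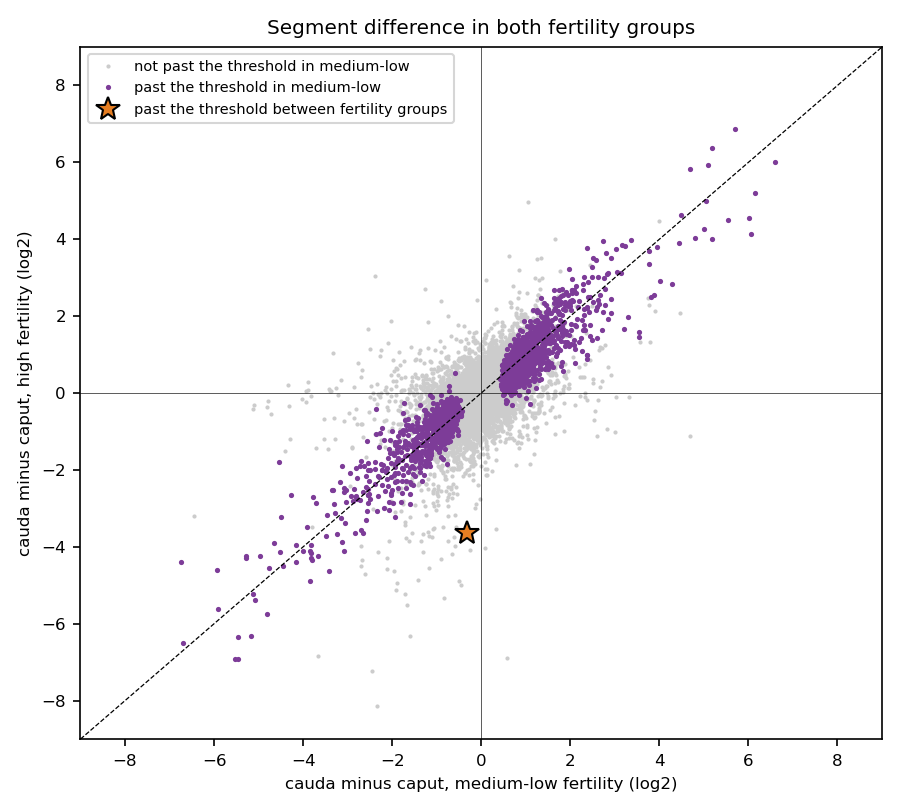
Log2 difference, cauda minus caput, of each probe set in medium-low fertility bulls (x axis) and in high fertility bulls (y axis), with the 1797 called in medium-low bulls in purple and the others in grey. The dashed line marks equal differences, and the star is the 1 probe set called for the interaction.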

How the data were processed

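The log2 values, 1 for each of 26773 probe sets and 18 arrays, were normalized by the authors with RMA, per the submitters' processing notes, which name Affymetrix Expression Console and Partek 6.5 too, with no step attached. The values were used as deposited. The array medians of the 6 arrays compared lay between 7.28 and 7.35, and the number of arrays limits the precision. Probe sets took their gene from the platform's annotation (18457 named 1 gene, 688 several, 7628 none, and 17996 of the first matched a gene of the RefSeq table), and each gene's brightest 1-gene probe set stood for it in the lists.

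The 3 medium-low cauda and 3 medium-low caput arrays were fitted in limma (version 3.58.1, in R 4.3.3) with moderated variances, Benjamini-Hochberg adjustment over all probe sets and a threshold of 0.05, and the code was tested on simulated data. The interaction used 12 arrays. Named genes were the 15 largest changes in each direction among called genes without overlap, up to 5 called members of a list and 3 more in its minority direction, the 8 widest ranges in each group, genes called for the interaction, and cell type markers. AQP9, ERLEC1, HOXB7, LGR4, FOSL2 and JUND were named outside this rule after their values were seen. The members and the 35 lists were chosen with earlier results of these data known.

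The labels do not say that the replicate number marks a bull, so p-values measure the spread between these samples. Deviations of same-numbered cauda and caput arrays from their group means correlated at 0.15, 0.30 and 0.15, over the limit of 0.1. Those of caput and corpus correlated at 0.24, 0.35 and 0.07, so number 3 lay under the limit there. The numbers were taken to pair cauda and caput, from the data and not from the labels. The main fit left this pairing out, and only the fits with the replicate block used it. Alternatives changed the normalization, the filter, the prior, the weights, the block and the arrays fitted. The block over all 18 arrays and the fit of the 9 medium-low arrays were added after seeing the data.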

Additional observations from a re-analysis of the deposited data

Results flagged for a closer look

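One result differed between the fertility classes. Probe set 12708857 had a cauda minus caput difference that was 3.30 higher in medium-low than in high fertility bulls (SE 0.229, limma adjusted p = 0.000645). The difference was -0.33 in medium-low bulls and -3.63 in high fertility bulls. Of its 6 medium-low arrays the highest stood at 6.11, and the 3 medium-low corpus arrays lay at 5.07 to 5.57.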

How the results depend on the processing

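No named gene that was called changed sign under any setting run. The segments did not overlap for these genes, so fits with arrays left out or weighted could not change a sign. Only the changes of normalization could have done so. Array medians subtracted, quantile or cyclic loess normalization, dim probe sets left out, 1 probe set per gene, a trended and robust prior and an unadjusted p under 0.05 with a 2-fold difference gave counts within 1.5 times the 1797 called. Array weights gave 4525 (2533 higher and 1992 lower in cauda), all 18 arrays in 1 fit 5481 (3036 and 2445) and the 9 medium-low arrays 3246 (1896 and 1350). The replicate block gave 935 (536 and 399), and with all 18 arrays 6543 (3598 and 2945). Under the block of 6 arrays 87 of 132 named called genes kept their call and 45 lost it. With 1 array left out, from 50 of the 132 (without cauda 1 or caput 2) to 120 (without caput 3) kept it. The fit of all 18 arrays without caput arrays 1 and 2 gave 3385 (1630 and 1755), fewer than with them, and leaving out both arrays numbered 3 gave 3357 (1831 and 1526). Leaving out 1 array gave 338 to 3569 called, 170 to 1846 higher and 152 to 1723 lower. The interaction gave 831 with array weights, 1862 without both arrays numbered 3, 2 without caput arrays 1 and 2, and 1 with the replicate block. With 1 probe set per gene limma gave 0 (1896 at an unadjusted p under 0.05), since probe set 12708857 has no gene and was not tested. Leaving out 1 array gave 1 to 2204, the highest without medium-low caput 3. Values of 3 arrays per group limit these calls, and no value of signal over background was given. The causes of these shifts were not tested.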
